A study of Mus musculus with 15 samples.

Results

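The prostaglandin genes followed here were Ptgs1, Ptgs2, Ptges, Ptgis, Hpgd, Slco2a1, Ptger2, Ptger4 and Ptgfr, a list of 9 genes for the synthesis, breakdown, transport and reception of prostaglandins. For each gene the probe set that named it alone was used, or the one with the highest mean over the arrays where there were several. This gave 8 measured genes among the 19938 genes with a probe set of their own, on an array of 28853 probe sets. Ptgs1, which encodes the cyclooxygenase that most tissues make at a steady level, was named alone by no probe set in the annotation used and was not analysed here.

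Prostaglandins are short-lived lipid signals made from arachidonic acid, which cyclooxygenases turn into a common precursor and terminal synthases turn into prostaglandin E2, prostacyclin and others. The products act on G protein-coupled receptors of nearby cells, and a membrane transporter with an intracellular dehydrogenase removes them. Stromal cells of many organs, the heart included, make prostaglandin E2 and prostacyclin, and the inducible cyclooxygenase is known for its rise after growth factors and cytokines.

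The data were log2 intensities from 15 Affymetrix arrays of total RNA from cultured cardiac colony-forming unit fibroblasts (cCFU-F), stromal cells of the mouse heart that form colonies in culture. All 5 groups of 3 arrays were labelled as from C57BL/6 mice aged 12 weeks and male, and the cells had been sorted for SCA1 and PDGFRα and against CD31. Large colonies were never treated and were measured at passage 5 and again at passage 15. Small colonies at passage 5 were measured without treatment and with PDGF-AB, and at passage 15 with PDGF-AB. PDGF-AB is a dimeric platelet growth factor whose receptors are PDGFRα and PDGFRβ, and the stated dose was 50 ng/ml. Late small colonies without PDGF-AB were not analysed here. Colony size and PDGF-AB therefore cannot be told apart wherever treated small colonies are set against large ones. Whether replicate arrays stem from separate cultures or mice is not stated, and the p-values then reflect only how these arrays scatter, which may be technical. How long PDGF-AB was applied is not given in the sources used here.

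Array medians lay between 5.59 and 5.72 and the arrays' lower quartiles between 4.06 and 4.23. Across genes, arrays of the same group correlated at an r of 0.997 to 0.998, and arrays from different groups at 0.958 to 0.991. Of the stromal markers 9 of 10 were measured, and the mean of each over the 15 arrays was at or above the level of the median gene. Group means of Thy1 were 10.33 and 10.63 in large colonies and 5.11 to 5.49 in the small colony groups. Those of Tcf21 were 8.38 and 9.56 in untreated and treated small colonies at passage 5 and 4.65 to 4.93 in the other groups, and the low values of both genes are below the median gene, at 6.02. Group means of Pecam1, which encodes CD31, lay between 4.29 and 4.59. Xist lay between 8.93 and 10.88 and 4 Y-linked genes between 2.24 and 3.42 in all 15 arrays, which goes against the label male.

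Of the 8 measured genes 4 had group means that spanned at least 1 log2 unit, namely Ptgs2, Ptges, Slco2a1 and Ptger4. Their promoters are shown because the results turn on these genes. Each sequence is the 250 bases before 1 transcript start that RefSeq gives for the gene on GRCm38.p6, 5′ to 3′ on the gene's strand, where 8 of the 9 genes were matched. For Ptges and Slco2a1 this start lies inside the gene's annotated span, which begins further upstream. Capitals mark matches, on either strand, to 6 short motifs that were searched.
Ptgs2 (chr1:150099781-150100030, plus strand): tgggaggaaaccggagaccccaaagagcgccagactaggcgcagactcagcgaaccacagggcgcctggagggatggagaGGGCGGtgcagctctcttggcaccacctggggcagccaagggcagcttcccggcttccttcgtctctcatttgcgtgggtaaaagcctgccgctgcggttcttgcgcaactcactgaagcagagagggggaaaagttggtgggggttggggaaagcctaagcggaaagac
Ptges (chr2:30903298-30903547, minus strand): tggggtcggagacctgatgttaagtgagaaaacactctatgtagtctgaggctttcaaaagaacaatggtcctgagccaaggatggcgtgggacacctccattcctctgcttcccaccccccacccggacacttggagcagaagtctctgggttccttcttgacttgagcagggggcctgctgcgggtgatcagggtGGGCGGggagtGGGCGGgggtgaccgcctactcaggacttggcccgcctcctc
Slco2a1 (chr9:103008237-103008486, plus strand): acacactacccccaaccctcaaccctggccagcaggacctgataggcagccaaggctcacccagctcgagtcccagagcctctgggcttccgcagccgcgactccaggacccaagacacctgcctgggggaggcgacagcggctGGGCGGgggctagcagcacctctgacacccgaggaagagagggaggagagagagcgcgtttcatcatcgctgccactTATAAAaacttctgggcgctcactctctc
Ptger4 (chr15:5244188-5244437, minus strand): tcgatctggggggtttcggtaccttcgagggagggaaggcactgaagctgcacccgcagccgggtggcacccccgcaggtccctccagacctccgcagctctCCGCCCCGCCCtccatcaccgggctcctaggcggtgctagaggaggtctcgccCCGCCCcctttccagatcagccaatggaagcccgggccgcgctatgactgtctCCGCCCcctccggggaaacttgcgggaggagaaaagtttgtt

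The motifs searched were the TATA element TATAAA, the full cAMP response element TGACGTCA and its shorter form TGACG, which lies within the full one. The others were TGANTCA for AP-1 factors, GGGCGG for Sp factors and the E-box CACGTG. Positions count back from -1, the base just before the start. The Ptgs2 window held GGGCGG at -170 to -165, and the Ptges window held it at -53 to -48 and at -42 to -37. The Slco2a1 window held TATAAA at -29 to -24 and GGGCGG at -106 to -101. The Ptger4 window held GGGCGG on the opposite strand 4 times, with last bases at -143, -138, -90 and -37, the first pair sharing 1 base. Over 32851 promoter windows of the same length, 32.7% held GGGCGG and 12.4% held TATAAA. The other motifs were absent from the 4 windows printed and were held by 1.55% (TGACGTCA), 17.8% (TGACG), 6.75% (TGANTCA) and 6.02% (CACGTG) of all windows. Sequence after the start or further upstream was not searched, so the absence covers only the 250 bases before the start used.

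Levels are log2 intensities with the SD over 3 arrays, differences are log2 differences with the SE of a limma fit over all 15 arrays, and adjusted p-values are Benjamini-Hochberg values over 19938 genes. A gene passed the test where its adjusted p was under 0.05. Levels of different genes come from different probe sets and are not set against each other.

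**Figure D1:**
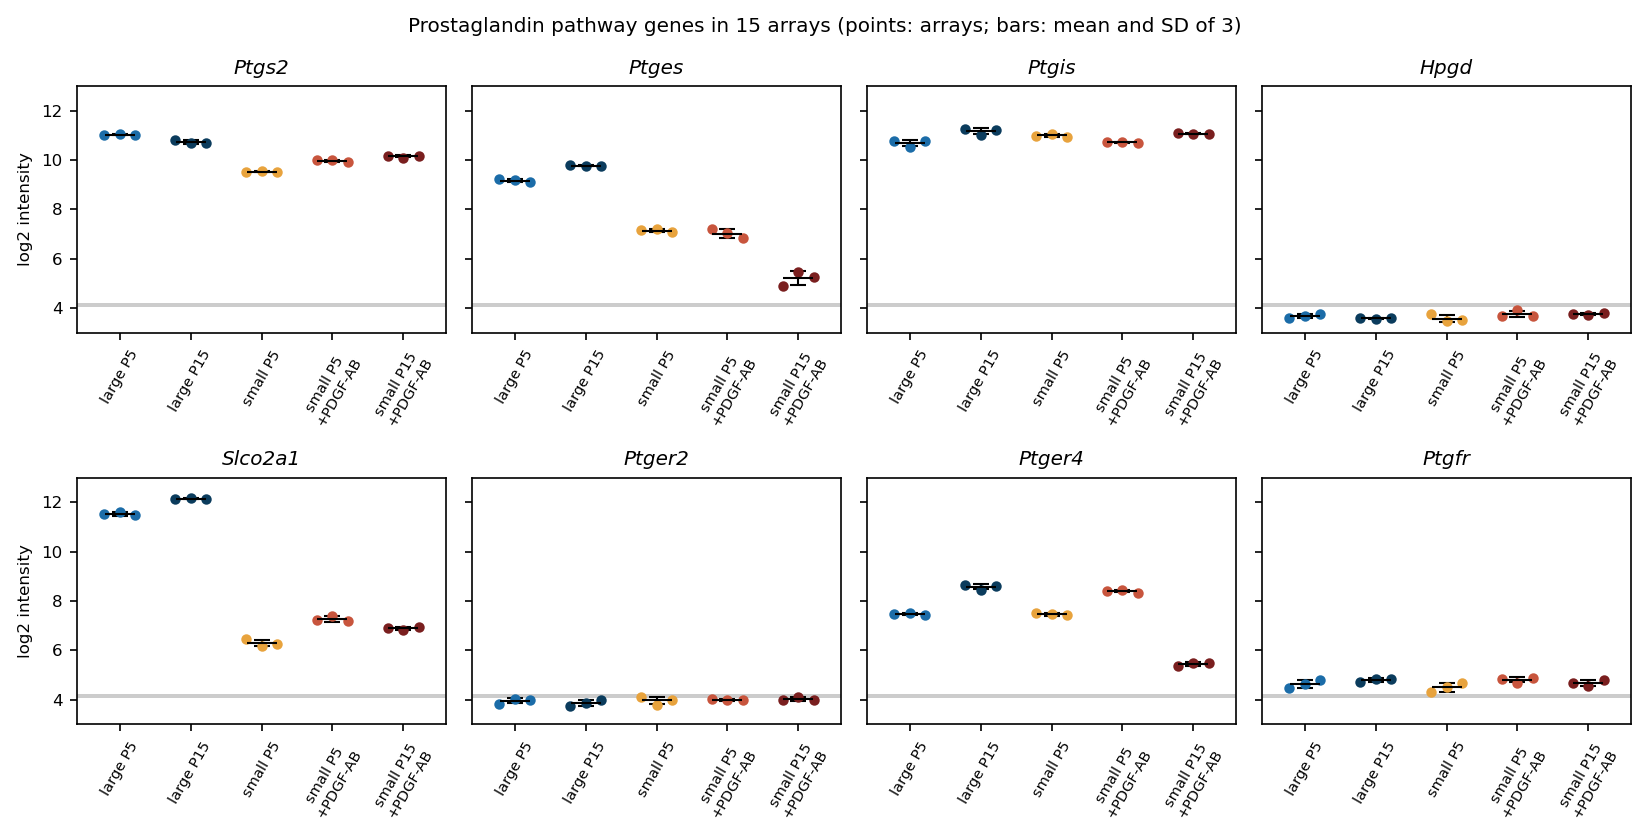
Log2 intensity of the 8 measured prostaglandin genes in the 5 groups, with 1 point per array, bars at the group mean ± SD (n = 3) and a grey band over the range of the arrays' lower quartiles (4.06 to 4.23). Slco2a1 stood above 11 in the 6 large colony arrays and below 8 in the 9 small colony arrays, Ptges and Ptger4 were lowest in treated small colonies at passage 15, and Hpgd and Ptger2 lay at or under the band.

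Ptgs2, the inducible cyclooxygenase gene (chr1:150100031-150108234), was highest in untreated large colonies and lowest in untreated small ones. Large colonies measured 11.01, 11.04 and 11.02 at passage 5 (mean 11.02 ± 0.019) and 10.82, 10.71 and 10.69 at passage 15 (10.74 ± 0.071). Small colonies at passage 5 measured 9.50, 9.56 and 9.53 without PDGF-AB and 10.00, 9.99 and 9.92 with it. The treated small colonies at passage 15 measured 10.16, 10.10 and 10.18. No array of any group fell within the range of another group. At passage 5 Ptgs2 was 1.49 higher in large than in small untreated colonies (SE 0.054, 2.81-fold, adjusted p = 9.0e-13). It rose by 0.44 with PDGF-AB in small colonies (1.35-fold, adjusted p = 1.3e-05). With passage it fell by 0.28 in large colonies (adjusted p = 0.000427) and rose by 0.18 in treated small colonies (adjusted p = 0.0109). All 10 pairs of groups passed the test, 3 of them at 2-fold or more, in the order large passage 5, large passage 15, treated small passage 15, treated small passage 5 and untreated small passage 5.

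Ptges encodes the inducible terminal synthase of prostaglandin E2 (chr2:30889471-30931020). It was high in large colonies, lower in small colonies at passage 5 and lowest in treated small colonies at passage 15. Large colonies measured 9.22, 9.18 and 9.11 at passage 5 and 9.82, 9.75 and 9.76 at passage 15. Small colonies at passage 5 measured 7.17, 7.20 and 7.07 without PDGF-AB and 7.21, 7.03 and 6.83 with it, and these groups overlapped. At passage 15 the treated small colonies measured 4.90, 5.46 and 5.27, each under the median of its own array. The difference between large and small untreated colonies was 2.02 (SE 0.11, 4.06-fold, adjusted p = 2.9e-10). The difference with PDGF-AB was -0.13 with a 95% interval from -0.37 to 0.11 (adjusted p = 0.434). With passage Ptges rose by 0.61 in large colonies (95% interval 0.37 to 0.85, adjusted p = 0.000355) and fell by 1.81 in treated small colonies (3.51-fold, adjusted p = 9.1e-10). At passage 15 it was 23.7-fold lower in treated small than in large colonies (adjusted p = 5.0e-15). In the order of the group means, untreated and treated small colonies at passage 5 were the neighbours that did not pass the test, and 9 of 10 pairs passed it.

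Ptgis encodes prostacyclin synthase, the terminal enzyme that makes prostacyclin (chr2:167203194-167252150), and its level moved little. Large colonies measured 10.77, 10.54 and 10.76 at passage 5 and 11.28, 11.03 and 11.23 at passage 15. Small colonies at passage 5 measured 10.99, 11.07 and 10.95 without PDGF-AB and 10.73, 10.75 and 10.69 with it. Treated small colonies at passage 15 measured 11.10, 11.04 and 11.07. The treated small colonies at passage 5 lay below the untreated ones in all arrays, while the groups at passage 15 overlapped. Ptgis rose with passage by 0.49 in large colonies (adjusted p = 4.4e-05) and by 0.35 in treated small colonies (adjusted p = 0.000907). It fell by 0.28 with PDGF-AB (adjusted p = 0.00848), and at passage 5 it was lower in large than in small untreated colonies by 1.24-fold (adjusted p = 0.0027). Of the 10 pairs 6 passed the test and none reached 2-fold. At passage 15 the difference was -0.11 (95% interval -0.27 to 0.046, adjusted p = 0.218), and without large colony replicate 2 of passage 15 the adjusted p was 0.0446.

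Slco2a1, the gene of the prostaglandin transporter that carries prostaglandins into cells (chr9:103007061-103096002), had the widest span of group means among the 8 genes, 5.85. Large colonies measured 11.51, 11.59 and 11.47 at passage 5 (11.52 ± 0.064) and 12.15, 12.17 and 12.13 at passage 15 (12.15 ± 0.023). Small colonies at passage 5 measured 6.44, 6.19 and 6.27 without PDGF-AB (6.30 ± 0.13) and 7.25, 7.39 and 7.18 with it (7.27 ± 0.10). Treated small colonies at passage 15 measured 6.92, 6.81 and 6.93. No groups overlapped, and the 6 large colony arrays stood more than 4 log2 units above every small colony array. In bulk RNA, fewer cells that express a gene and less RNA per cell cannot be told apart. At passage 5 Slco2a1 was 5.22 higher in large than in small untreated colonies (SE 0.072, 95% interval 5.07 to 5.38, 37.4-fold, adjusted p = 1.4e-17). It rose by 0.97 with PDGF-AB in small colonies (95% interval 0.82 to 1.12, 1.96-fold, adjusted p = 3.5e-08). With passage it rose by 0.62 in large colonies (adjusted p = 2.5e-06) and fell by 0.38 in treated small ones (adjusted p = 0.000304). The treated small colonies stayed below the large ones by 4.25 at passage 5 (adjusted p = 1.0e-16) and by 38.3-fold at passage 15 (adjusted p = 9.3e-18).

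Slco2a1 is also known from endothelial cells, so the endothelial markers are given beside it. Of 9 endothelial markers, all measured, 1 had a mean at or above that of the median gene, and Emcn lay below the lower quartile in all 15 arrays. Their summed linear intensity was 287.9 to 302.7 in large colonies at passage 5, 275.3 to 293.6 in large colonies at passage 15, and 265.8 to 288.3 in untreated small colonies. In treated small colonies it was 249.8 to 289.3 at passage 5 and 321.4 to 335.9 at passage 15. The large and small untreated colonies at passage 5 overlapped in this sum. Of the 9 endothelial markers 2 were nevertheless higher and 1 lower in these large colonies, 33.3% against 36.2% of all genes. The median difference of the list was 0.15, and that of all genes 0.031. The stromal marker Thy1 was higher by 5.22 in large than in small untreated colonies (adjusted p = 1.6e-17), in the direction of Slco2a1. Of 9 stromal markers 3 were higher and 3 lower there, 66.7% against 36.2% of all genes. The part of either marker list in the difference in Slco2a1 was not tested.

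Hpgd, whose product is the dehydrogenase that inactivates prostaglandins inside the cell (chr8:56294552-56321046), lay between 3.48 and 3.92 in all 15 arrays. In each array it was under the lower quartile of that array. None of the 10 pairs of groups passed the test, and no fold is given at this level. Its difference with PDGF-AB was 0.19 (adjusted p = 0.0738), and it was 0.17 higher in treated small than in large colonies at passage 15 (adjusted p = 0.0807), where the arrays did not overlap. These adjusted p-values were sensitive to untreated small colony replicate 1. The passage 15 comparison does not hold that array, and its difference stayed at 0.17 while the shared SE fell from 0.078 to 0.067. Without that array the adjusted p was 0.0119 for PDGF-AB, 0.0466 at passage 15, and 0.00866 for late treated against early untreated small colonies, where it was 0.0642 with all arrays. Without treated small colony replicate 2 of passage 5 the last value was 0.0483.

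Ptger4, a receptor gene for prostaglandin E2 whose product raises cAMP (chr15:5233399-5244187), did not follow colony size at passage 5. Large colonies measured 7.47, 7.52 and 7.43 at passage 5 and 8.65, 8.45 and 8.60 at passage 15. Small colonies without PDGF-AB measured 7.53, 7.46 and 7.41 at passage 5. These overlapped with the large colonies of that passage, and the difference between them was 0.0087 (95% interval -0.13 to 0.14, adjusted p = 0.934). Small colonies with PDGF-AB measured 8.41, 8.44 and 8.34 at passage 5 and 5.36, 5.48 and 5.49 at passage 15. The last 3 arrays lay under the medians of their own arrays and below every other array. Ptger4 rose by 0.93 with PDGF-AB (SE 0.063, 1.90-fold, adjusted p = 1.3e-08) and by 1.09 with passage in large colonies (2.13-fold, adjusted p = 5.5e-10). It fell by 2.96 with passage in treated small colonies (7.76-fold, adjusted p = 1.4e-15) and ended 4.08-fold below untreated small colonies at passage 5 (adjusted p = 1.8e-13). In the order of the group means, large colonies at passage 15 came before treated small colonies at passage 5, by 0.17 (adjusted p = 0.0367), and 9 of 10 pairs passed the test.

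Ptger2, a further cAMP-raising receptor gene for prostaglandin E2 (chr14:44988111-45003820), lay between 3.74 and 4.12 and under the lower quartile in 14 of 15 arrays. None of the 10 pairs passed the test. At passage 15 its treated small and large colony arrays did not overlap, with a difference of 0.17 (adjusted p = 0.0899, and 0.0434 without large colony replicate 3 of passage 15). Ptgfr, the receptor gene for prostaglandin F2α (chr3:151798610-151837528), lay between 4.32 and 4.89, under the array median in all 15 arrays and never under the lower quartile. It was higher by 0.30 with PDGF-AB (95% interval 0.09 to 0.51, adjusted p = 0.031), although the arrays of the 2 groups overlapped. The call was lost without untreated small colony replicate 1 or 2 (adjusted p = 0.16 and 0.0717) and without treated small colony replicate 1 or 3 of passage 5 (0.0763 and 0.115). It was also lost with cyclic loess between arrays (0.0755) and in a fit of the compared arrays alone (0.0537). For late treated against early untreated small colonies the adjusted p of Ptgfr was 0.128, and 0.0306 without untreated small colony replicate 3.

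The comparison of untreated large with untreated small colonies at passage 5 asked what sets the colony types apart. Ptgs2, Ptges and Slco2a1 were higher in large colonies, each by more than 2-fold, and Ptgis was lower. These were 4 of 8 genes, against a background of 36.2% of all genes that passed the test in either direction, 18.2% higher and 18% lower in large colonies. At 2-fold or more 3 of the 8 genes were called, against 3.93% of all genes. The median difference of the 8 genes was 0.12, and that of all genes 0.031.

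The comparison of treated with untreated small colonies at passage 5 asked what the growth factor changed. Ptgs2, Slco2a1 and Ptger4 rose, Ptgis fell, and Ptgfr passed the test with the exceptions given above. These 5 of 8 genes stand against 28.9% of all genes that passed the test, 10.7% higher and 18.2% lower. None of the 8 reached 2-fold, which 1.39% of all genes did. The median of the 8 genes was 0.25 and that of all genes 0.016. Without 1 array the count of called genes lay between 4 and 5.

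**Figure D2:**
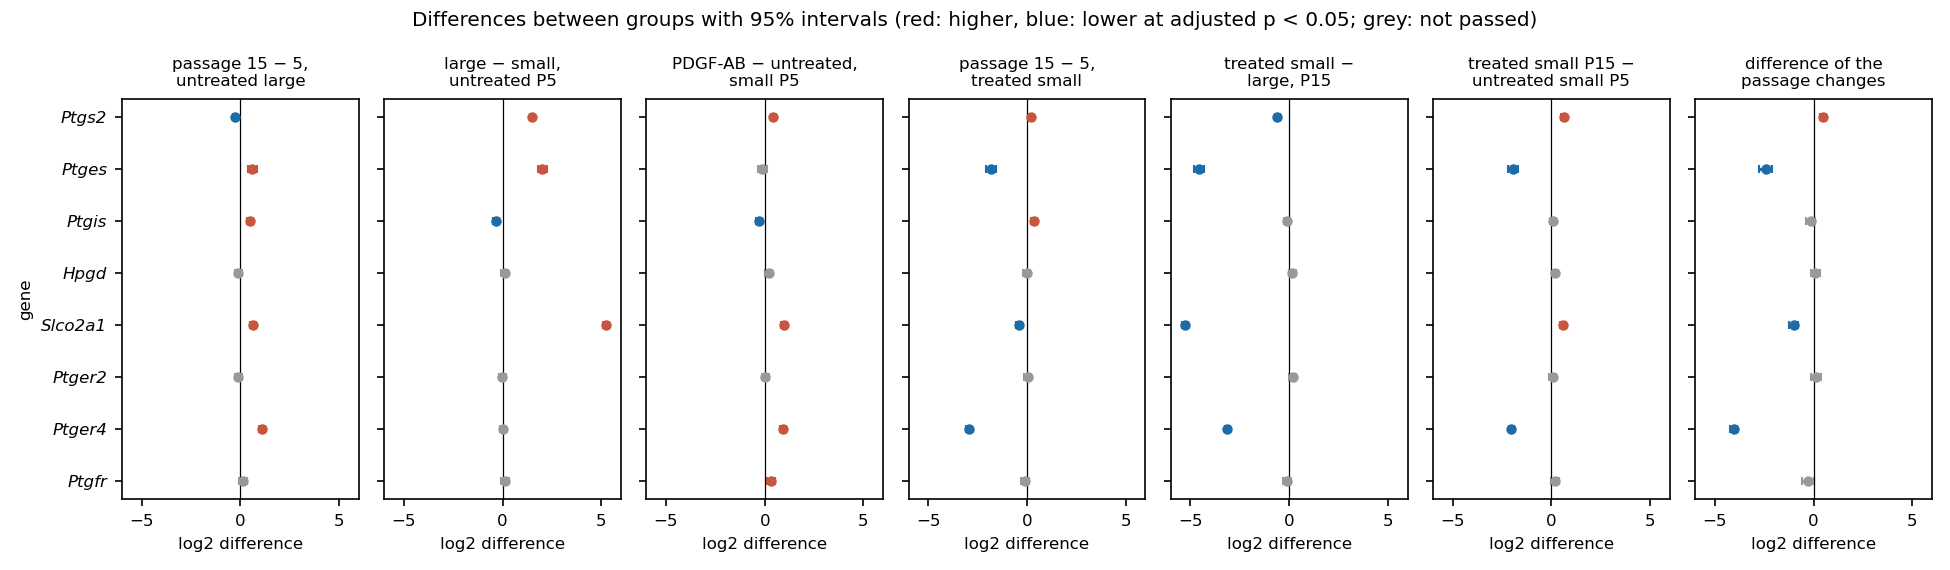
Log2 differences of the 8 measured genes in 7 comparisons, with 95% intervals, where red marks genes that passed the test as higher, blue those that passed as lower and grey those that did not pass. Slco2a1 differed by 5.22 between colony types at passage 5, and Ptger4 fell by 2.96 with passage in treated small colonies.

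The passage comparisons asked what changed between passage 5 and passage 15. In untreated large colonies Ptges, Ptgis, Slco2a1 and Ptger4 rose and Ptgs2 fell. These 5 of 8 genes stand against 36.1% of all genes called, 17.4% higher and 18.7% lower. Ptger4 alone among the 8 reached 2-fold, against 3.77% of all genes, and the medians were 0.32 for the 8 genes and -0.042 for all genes. In treated small colonies Ptgs2 and Ptgis rose and Ptges, Slco2a1 and Ptger4 fell. That was again 5 of 8 genes, against 46% of all genes, 24.6% higher and 21.4% lower. Ptges and Ptger4 reached 2-fold, against 5.26% of all genes, and the medians were -0.067 and 0.051. The comparison with PDGF-AB and this one share the treated arrays of passage 5, with opposite sign, so a gene that was high in those arrays rises in the former and falls in the latter.

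Whether the passage change differed between treated small and untreated large colonies was tested as the difference between these changes. For Ptgs2 the change was 0.46 more positive in treated small colonies (SE 0.076, adjusted p = 0.000167), with a fall in large colonies and a rise in treated small ones. For Ptges it was more negative, at -2.42 (SE 0.16, adjusted p = 5.6e-09). Slco2a1 gave -1.01 (SE 0.10, adjusted p = 9.5e-07) and Ptger4 -4.05 (SE 0.090, adjusted p = 1.6e-14). All 4 genes thus moved in opposite directions with passage in the 2 kinds of colony. For Ptgis, which rose in both, the difference was -0.14 (95% interval -0.36 to 0.077, adjusted p = 0.304). The 4 of 8 genes stand against 34.4% of all genes, 18.6% higher and 15.9% lower, and the 3 at 2-fold or more against 4.23%. Colony size and PDGF-AB differ together in this comparison.

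**Figure D3:**
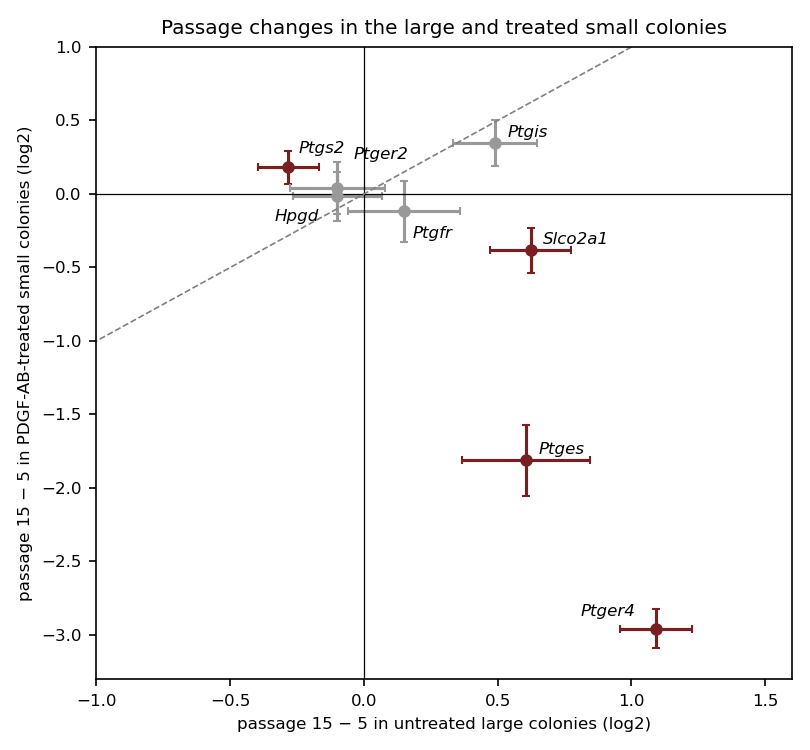
Change from passage 5 to passage 15 in untreated large colonies (x axis) against that in small colonies with PDGF-AB (y axis), both as log2 differences with 95% intervals, with a dashed line of equal change and dark red for genes whose changes differed. Ptges, Slco2a1 and Ptger4 rose in large colonies and fell in treated small ones, Ptgs2 did the opposite, and Ptgis rose in both.

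At passage 15 Ptgs2, Ptges, Slco2a1 and Ptger4 were lower in treated small than in untreated large colonies, by 1.51-fold for Ptgs2 (adjusted p = 1.2e-07) and 8.74-fold for Ptger4 (adjusted p = 4.8e-16). These 4 of 8 genes are near the background of 53.4% of all genes, of which 29.2% were higher and 24.2% lower. The 3 genes at 2-fold or more stand against 4.64%. Treated small colonies at passage 15 were also set against untreated small colonies at passage 5, where PDGF-AB and passage differ together. Ptgs2 was higher by 1.53-fold (adjusted p = 6.8e-08) and Slco2a1 by 0.59 on the log2 scale (adjusted p = 3.8e-06), and Ptges was lower by 3.84-fold (adjusted p = 4.4e-10), as was Ptger4. This count, too, is near its background of 54.7% of all genes, 29.6% higher and 25% lower, while the 2 genes at 2-fold or more stand against 4.85%. In the other pairs of groups 35.7% of all genes were called between large and treated small colonies at passage 5. The remaining pairs had 49.9% (large at passage 5 and treated small at passage 15), 38.5% (large at passage 15 and untreated small) and 45.3% (large at passage 15 and treated small at passage 5).

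Leukocytes also make and respond to prostaglandin E2, and the summed level of their markers was lowest in the group where Ptges and Ptger4 were lowest. Of 10 leukocyte markers 9 were measured, 2 of them with a mean at or above the level of the median gene, and Ptprc and Adgre1 lay below the lower quartile in all 15 arrays. Their summed linear intensity was 639.1 to 653.8 in large colonies at passage 5, 727.1 to 791.7 in large colonies at passage 15, and 942.6 to 985.2 in untreated small colonies. In treated small colonies it was 774.9 to 796.5 at passage 5 and 323.5 to 344.5 at passage 15. The macrophage lysozyme gene Lyz2 had means of 8.46, 8.73, 9.14, 8.93 and 5.35 in the same order. With passage in treated small colonies 3 leukocyte markers rose and 2, Lyz2 and Cd14, fell (55.6% against 46% of all genes). The median over the list was -0.0033, so Lyz2 made up most of the fall in the sum. In the same comparison 5 of 9 stromal markers rose and 2 fell (77.8% against 46%), and Tcf21 fell by 4.62 (adjusted p = 6.5e-16). The part of these markers in the fall of Ptges and Ptger4 was not tested. Pericyte and smooth muscle markers, all 8 measured, summed to 5618.8 to 5646.8 in untreated and 7283.2 to 7483.6 in treated small colonies at passage 5, and to 6078.7 to 6214.8 in the treated ones at passage 15. Cardiomyocyte markers, all 6 measured, summed to 490.7 to 544.9 and 417.1 to 424.5 in large colonies at passage 5 and 15, and to 825.1 to 1679.0 over the small colony arrays. Tnnt2 carried that sum, with means of 7.99 and 7.32 in large and 9.08 to 10.38 in small colony groups. It was the 1 called marker of 6 for colony type (16.7% against 36.2% of all genes). The 6 mesothelial markers summed to 595.4 to 677.6 in large and 630.6 to 642.6 in small untreated colonies at passage 5, and to 296.5 to 387.1 over the other groups.

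Of the genes for the release and exchange of arachidonic acid, 11 of 12 listed were measured, and the list holds Anxa1, a phospholipase A2 inhibitor, beside the enzymes. At passage 5, 6 were higher (Anxa1 among them, by 1.01) and 1 lower in large than in small untreated colonies, 63.6% of the list against 36.2% of all genes. The count was 4 without large colony replicate 2 or without untreated small colony replicate 1 or 2. Mgll, the monoacylglycerol lipase gene, had means of 9.08 in large and 6.78 in small untreated colonies (4.94-fold, adjusted p = 6.5e-13). It was at 6.83 in large colonies at passage 15, 4.77-fold lower than at passage 5 (adjusted p = 1.2e-12). Pla2g4a, which encodes the cytosolic phospholipase A2 that frees arachidonic acid, had means of 9.56 and 9.83 in large colonies at passage 5 and 15, 8.73 in untreated small colonies, and 8.75 and 9.61 in treated small colonies. It was thus higher in large colonies at passage 5 (difference 0.83, adjusted p = 2.6e-09) and rose by 0.86 with passage in treated small colonies (adjusted p = 1.3e-09), where Ptges fell. With PDGF-AB 2 of the list, Anxa1 included, were higher and 1 lower, 27.3% against 28.9% of all genes. With passage 1 was higher and 5 lower in large colonies (54.5% against 36.1%). In treated small colonies 3 were higher and 4 lower (63.6% against 46%), a total of 4 without replicate 1 of either treated group.

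Other prostanoid synthases and reductases were measured as 11 of 12 listed genes. In large colonies 3 rose and 3 fell with passage, 54.5% against 36.1% of all genes. In treated small colonies 2 rose and 3 fell, 45.5% against 46%, and at passage 5 there were 2 higher and 1 lower in large than in small untreated colonies, 27.3% against 36.2%. The latter counts are at or under the background. Cbr1, a carbonyl reductase gene whose product can turn prostaglandin E2 into F2α, fell with passage by 0.85 in large colonies (adjusted p = 2.9e-07) and by 1.36 in treated small colonies (adjusted p = 5.6e-10). Akr1c18, an aldo-keto reductase gene, rose by 1.52 with passage in large colonies (adjusted p = 1.0e-07). In both treated groups it lay between 3.66 and 3.93, under the lower quartiles of the arrays. With PDGF-AB 1 gene of the list was higher and 1 lower, 18.2% against 28.9% of all genes, and a total of 1 without untreated small colony replicate 2 or without treated small colony replicate 2 or 3 of passage 5, and 4 with array weights.

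All 8 genes for prostaglandin breakdown and other carriers were measured. With passage in large colonies 3 rose and 4 fell (87.5% against 36.1% of all genes), and in treated small colonies 3 rose and 2 fell (62.5% against 46%). With PDGF-AB 2 rose and 2 fell (50% against 28.9%). At passage 5, 2 were higher and 1 lower in large than in small untreated colonies (37.5% against 36.2%). At passage 15, 5 were higher and 3 lower in treated small than in large colonies (100% against 53.4%). In late treated against early untreated small colonies 4 were higher and 3 lower (87.5% against 54.7%). Slco3a1, a carrier gene related to Slco2a1, shared the directions of Slco2a1 in the colony type, PDGF-AB and treated passage comparisons. It was 0.87 higher in large colonies at passage 5 (adjusted p = 9.1e-09), rose by 0.60 with PDGF-AB (adjusted p = 2.2e-06) and fell by 1.24 with passage in treated small colonies (adjusted p = 6.4e-11). In large colonies Slco3a1 fell by 0.72 with passage (adjusted p = 9.6e-08), where Slco2a1 rose.

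The list of other prostanoid receptors was measured in full (7 genes), and it holds Ptgfrn, a negative regulator of the F2α receptor and not a receptor for prostanoids itself. Tbxa2r, the thromboxane receptor gene, was highest in large colonies, with means of 8.39 at passage 5 and 8.18 at passage 15. It was at 6.73 in untreated small colonies, a difference of 1.66 at passage 5 (3.16-fold, adjusted p = 8.4e-12). The prostacyclin receptor gene Ptgir had group means between 5.17 and 5.36. Ptger3, a receptor gene for prostaglandin E2 that lowers cAMP, was 0.61 lower in large than in small untreated colonies (adjusted p = 2.7e-05) and fell by 0.59 with PDGF-AB (adjusted p = 8.2e-05), where Ptger4 rose. The Ptger3 means at passage 5 were low, at 4.36 in large, 4.97 in untreated small and 4.39 in treated small colonies, against 6.02 for the median gene. At passage 5, 1 gene of the list was higher and 2, Ptger3 and Ptgfrn, were lower in large colonies (42.9% against 36.2% of all genes). With PDGF-AB Ptger1, Ptger3 and Ptgfrn fell and none rose (42.9% against 28.9%). With passage in treated small colonies Tbxa2r and Ptgfrn fell and none rose, 28.6% against 46% and so under the background. At passage 15, 3 of the list were higher and 4, Tbxa2r among them, lower in treated small than in large colonies (100% against 53.4%). In late treated against early untreated small colonies 2 were higher and 4 lower (85.7% against 54.7%). With passage in large colonies 1 rose and 2 fell (42.9% against 36.1%), a total of 1 without large colony replicate 2 of passage 5 or replicate 3 of passage 15. The lipoxygenase and leukotriene branch was measured in full (11 genes), and 1 to 5 of its genes passed the test in the 7 comparisons, a share of 9.09% to 45.5% that lay under that of all genes in each. Only 1 of these 11 genes had a mean at or above the level of the median gene. The part of low levels in the low share was not tested.

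**Figure D4:**
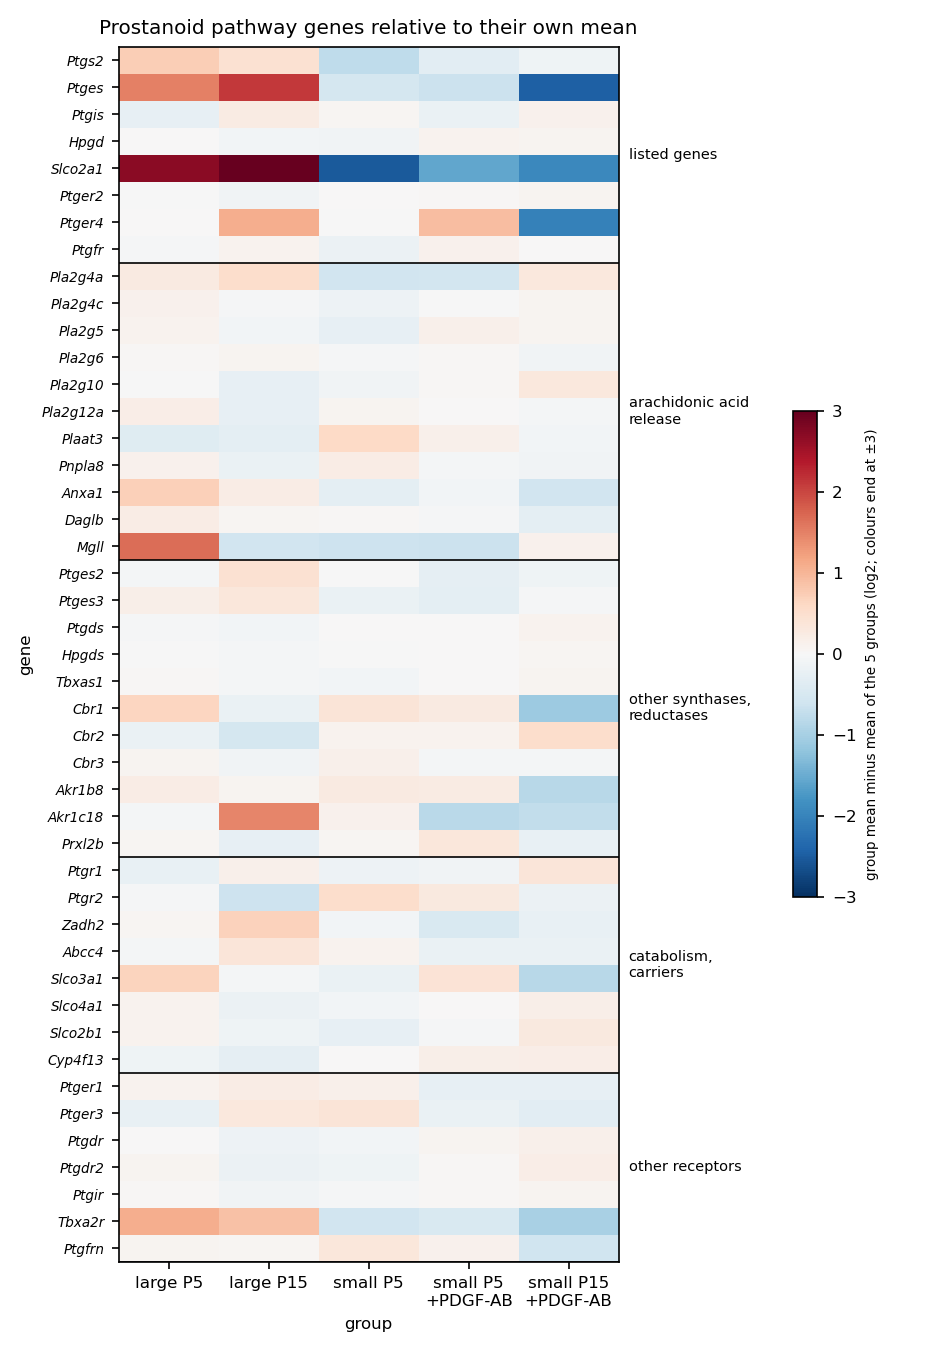
Group mean minus the mean of the 5 groups (log2, colours end at 3 in either direction) for the 8 measured genes and 4 lists of other prostanoid genes. Slco2a1, Ptges and Tbxa2r were above their own mean in both large colony groups, and Ptger4 was below its own mean by more than 2 in treated small colonies at passage 15.

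Of the cAMP response genes 11 of 12 were measured, and 8 were higher and 1 lower in large than in small untreated colonies at passage 5, where Ptger4 did not pass the test (81.8% of the list against 36.2% of all genes). With PDGF-AB 3 rose and 4 fell (63.6% against 28.9%). Nr4a1, an immediate early gene, rose by 0.55 with PDGF-AB (adjusted p = 8.1e-06) and fell by 2.05 with passage in treated small colonies (adjusted p = 1.6e-13), the directions of Ptger4. In large colonies Nr4a1 fell by 0.99 with passage (adjusted p = 2.7e-09), where Ptger4 rose. With passage 3 genes of the list rose and 5 fell in large colonies (72.7% against 36.1%), and 4 rose and 4 fell in treated small ones (72.7% against 46%). At passage 15 no gene of the list was higher and 7 were lower in treated small than in large colonies (63.6% against 53.4%). Ptger4 was lower there too. Of the interleukin 1 and NF-kB genes 13 of 16 were measured, and 10 rose and 1 fell with passage in large colonies, while Ptgs2 fell (84.6% against 36.1%). In treated small colonies 3 rose and 6 fell with passage (69.2% against 46%). At passage 15, 1 was higher and 9 were lower in treated small than in large colonies, where Ptgs2 was lower too (76.9% against 53.4%). The cytokine gene Il6 had means of 9.21 and 7.77 in large colonies at passage 5 and 15, 7.15 in untreated small colonies, and 8.66 and 4.32 in treated ones. It rose by 1.51 with PDGF-AB (adjusted p = 1.3e-09), as Ptgs2 did, and fell by 4.34 with passage in treated small colonies (adjusted p = 6.5e-16), where Ptgs2 rose. At passage 5, 4 genes of this list were higher and 4 lower in large colonies (61.5% against 36.2%). With PDGF-AB 2 rose and 3 fell (38.5% against 28.9%), a total of 3 without untreated small colony replicate 1.

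Likeness to other genes was taken as Pearson's r over the 15 arrays among 2538 genes whose group means spanned at least 1 log2 unit, as a description in which arrays of a group are not independent. The gene most like Ptgs2 was Raph1 (0.983), which encodes an actin regulator, and next came Siglecg (0.977), a sialic acid-binding receptor gene. For Ptges they were Sfrp1 (0.991), the gene of a secreted Wnt-binding protein, and the imprinted gene Peg3 (0.99). Kcnab1 (0.994), a potassium channel subunit gene, and the growth factor gene Fgf7 (0.993) were most like Slco2a1. For Ptger4 they were the calponin gene Cnn1 (0.981) and Ch25h (0.974), an oxysterol-forming enzyme gene. Among the prostaglandin genes r was 0.923 between Ptgs2 and Slco2a1, 0.887 between Ptges and Slco2a1, and 0.736 between Ptges and Ptger4. It was 0.679 between Ptgs2 and Ptges, 0.446 between Slco2a1 and Ptger4, and 0.164 between Ptgs2 and Ptger4. Ptgs2 and Slco2a1 moved in opposite directions with passage in both kinds of colony.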

How the data were processed

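RNA of 15 samples was measured on 1 array each. The deposited values are log2 intensities per probe set, computed by the authors. RMA and limma appear in the submitters' processing notes, without a version or a stated role. Background settings were not given in the sources used here, and detection calls were not used. Of 28853 probe sets 23410 were listed with a gene and 1621 of these with several. The 21789 naming 1 gene gave 19938 genes, and 999 genes had several probe sets, of which the one with the highest mean was kept. Gene positions and promoters are RefSeq's on GRCm38.p6, matched by gene identifier for 21698 probe sets.

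Groups followed the labels. A group-means model of all 15 arrays was fitted in limma 3.58.1 (R 4.3.3), with 10 residual and 5.80 prior degrees of freedom. Moderated tests were 2-sided, p-values were adjusted by Benjamini-Hochberg over the 19938 genes of each comparison, and the threshold was 0.05. Differences had a median SE of 0.0778, and the number of arrays limits the precision. The prostaglandin genes, the 7 wider lists and the 6 marker lists were chosen with earlier results of these data known. All measured prostaglandin genes are reported, and of each list up to 3 genes with the smallest adjusted p in a comparison could be named. Ptgir, Xist, Thy1, Tcf21, Tnnt2, Cd14, Lyz2, Pecam1, Emcn, Ptprc and Adgre1 were named outside this rule, after their values were seen. On simulated data for the PDGF-AB comparison over 19938 genes, the calls held 30% of 50 added changes of 0.25, 90% of 50 of 0.5 and 100% of 50 of 1, with 9 false calls. The simulation used independent noise and changed far fewer genes than the 28.9% called in the real comparison. Its rates may therefore differ from those of the real data. The alternatives were another centring, cyclic loess, a filter on low genes, the mean of a gene's probe sets, the compared arrays alone, other variance moderation, array weights, a replicate block, and leaving out each array. Python 3.11.15 was used for tables and plots.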

Additional observations from a re-analysis of the deposited data

Results flagged for a closer look

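The passage change differed between treated small and untreated large colonies for 4 of the 8 measured prostaglandin genes, by a test of the difference itself in limma. These stand against 34.4% of all genes called in the same test. The difference, treated small minus large, was 0.46 for Ptgs2 (adjusted p = 0.000167), -2.42 for Ptges (adjusted p = 5.6e-09), -1.01 for Slco2a1 (adjusted p = 9.5e-07) and -4.05 for Ptger4 (adjusted p = 1.6e-14). In each of these genes the 3 arrays of passage 15 lay beyond those of passage 5 in both kinds of colony, in opposite directions. How many of all genes did so was not counted. Colony size and PDGF-AB cannot be told apart here.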

How the results depend on the processing

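Over 23 alternatives, 15 of which left out 1 array, none of the 1267 recomputed differences of the prostaglandin genes changed direction where it passed the test with all arrays or under the alternative. Of the 1267, 1249 kept their side of the threshold, 6 lost the call, all of them Ptgfr with PDGF-AB, and 12 gained one, all of Hpgd, Ptger2, Ptgfr or Ptgis. Beside those given above, Hpgd with PDGF-AB had an adjusted p of 0.0385 with centred arrays, and Hpgd at passage 15 of 0.0395 in the compared arrays alone. Ptgfr was called with cyclic loess at passage 15 (0.0133) and in the difference between passage changes (0.0134), and with array weights for late treated against early untreated small colonies (0.0227). Leaving out genes below the median level (9969 genes tested) removed Hpgd, Ptger2 and Ptgfr. Calls over all genes at passage 15 went from 10637 of 19938 to 6829 of 9969. For late treated against early untreated small colonies they went from 10901 of 19938 to 6974 of 9969, so both shares rose. The shares of all genes given above include the low genes. The same filter changed the interleukin 1 and NF-kB count from 8 of 13 to 5 of 8 for colony type. For passage in large colonies the receptor count changed from 3 of 7 to 1 of 3. Centring arrays on their medians changed the share of higher calls over all genes from 48.3% to 38% for passage in large colonies and from 37.1% to 47.8% for PDGF-AB. No pair of groups met the rule for pairing by replicate number, a correlation above 0.1 for all 3 same-numbered arrays. The large colonies of passage 5 and 15 came close, at 0.208, 0.0984 and 0.202. There 6 of 6 arrays had their highest correlation with the same number (0 to 4 of 6 elsewhere), so these arrays may be linked. With a replicate block 5, 4, 5, 5, 4, 4 and 4 of the 8 genes were called in the 7 comparisons, as without it. Counts of the lipoxygenase list moved by more than 1.5 times in all 7 comparisons under some alternative. Cyclic loess lowered the arachidonic acid list from 7 to 4 calls at passage 15, and leaving out untreated small colony replicate 1 lowered the cAMP list from 8 to 5 for late treated against early untreated small colonies.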
